A study of Mus musculus with 9 samples.

Results

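The shores of CpG-dense windows are the 1 kb stretches of the mouse autosomes that lie beside the places where CpG dinucleotides crowd together. They were chosen by the CpG positions listed in the deposited methylation tables, without use of the levels. A CpG missing from both tables is not counted, so CpG numbers depend in part on coverage. The CpG positions listed in either of the deposited methylation tables were counted in windows of 1000 bp starting at multiples of that length, a window with 40 or more positions was called dense, and a shore was any window with under 40 positions lying 1 or 2 windows from a dense one. This gave 43293 shores of the 2317179 autosomal windows with a listed position, 22052 of them 1 window and 21241 of them 2 windows from a dense window. Another 129 windows beside a dense window held no listed position and carry no value. The dense windows numbered 13930 and formed 11157 runs of adjoining windows, 8820 of them a single window, 2003 of 2 windows and 334 of 3 or more. The remaining 2259956 windows with under 40 positions lay 3 or more windows away and are called further off here.

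The study sequenced bisulfite-converted genomic DNA of primordial germ cells, the embryonic precursors of sperm and eggs, from female C57BL/6 embryos at embryonic day 13.5. The Tet1-null group (Tet1 -/-) held 5 libraries from 1400 to 4700 cells each, and the WT group held 4 libraries from 1575 to 5251 cells each. The authors deposited 1 table per group in which the libraries are pooled, so each group is 1 pool without a replicate check. Every interval given here is a 95% interval for counting error only. It takes the reads at different CpG positions as independent, although 1 read can count at several positions, so it may be too narrow. The kind of Tet1 allele is not given in the sources used here, methylation tables cannot check the deletion or the cell type by marker genes, and sequencing runs and bisulfite kits, which were mixed differently in the groups, cannot be told apart from genotype.

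In most mammalian cells CpGs are methylated and are depleted from the genome, except in CpG islands, which are usually unmethylated and often hold gene promoters. The flanks of islands, their shores, are where methylation usually climbs from the low level of the island to the high level of the bulk genome, and they are known as places where methylation varies between tissues. Primordial germ cells lose nearly all of this methylation as they settle in the gonad. TET1 is a dioxygenase with a CXXC domain, and it oxidises 5-methylcytosine to 5-hydroxymethylcytosine and further forms. Bisulfite sequencing reads both 5-methylcytosine and 5-hydroxymethylcytosine as methylated, so a level here is their sum.

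A few gene starts illustrate the kinds of place described below, and the 250 bases before each are given 5′ to 3′ in the direction of the gene, with each CpG in capitals. Sequences are RefSeq's for GRCm38.p6. They were found in the mm9 tables by the spacing of their CpGs, and no coordinate was converted. Mael, the mouse homologue of a fly piRNA-pathway protein, and Tmem267, a transmembrane protein gene, are shown because their dense runs were at 20% or more in both pools. Nol7, a nucleolar protein gene, and Ndufaf3, an assembly factor of mitochondrial complex I, are shown because a shore of their dense run differed between the pools. Lsm7, a component of the spliceosome's U6 particle, is shown because its start lies inside a shore and was the best covered of such starts.
Mael: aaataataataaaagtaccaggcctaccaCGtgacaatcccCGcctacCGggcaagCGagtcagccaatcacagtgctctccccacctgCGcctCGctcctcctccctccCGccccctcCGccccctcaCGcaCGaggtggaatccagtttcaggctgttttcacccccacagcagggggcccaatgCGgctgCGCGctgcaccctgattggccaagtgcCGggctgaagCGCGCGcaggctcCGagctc
Tmem267: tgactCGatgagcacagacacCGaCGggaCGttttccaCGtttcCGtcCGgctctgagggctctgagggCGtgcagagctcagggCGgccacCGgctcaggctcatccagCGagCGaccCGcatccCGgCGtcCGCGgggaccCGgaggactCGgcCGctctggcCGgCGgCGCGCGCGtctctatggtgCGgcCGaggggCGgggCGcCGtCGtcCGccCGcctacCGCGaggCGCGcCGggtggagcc
Nol7: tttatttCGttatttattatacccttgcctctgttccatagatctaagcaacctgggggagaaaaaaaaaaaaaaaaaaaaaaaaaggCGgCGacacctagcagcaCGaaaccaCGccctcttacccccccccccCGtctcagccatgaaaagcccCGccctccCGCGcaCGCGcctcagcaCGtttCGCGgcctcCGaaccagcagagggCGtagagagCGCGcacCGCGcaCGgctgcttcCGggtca
Ndufaf3: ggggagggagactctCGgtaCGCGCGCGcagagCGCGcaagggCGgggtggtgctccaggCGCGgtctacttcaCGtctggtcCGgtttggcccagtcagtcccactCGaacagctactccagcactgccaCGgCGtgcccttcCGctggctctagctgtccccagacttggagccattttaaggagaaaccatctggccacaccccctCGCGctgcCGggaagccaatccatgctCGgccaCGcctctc
Lsm7: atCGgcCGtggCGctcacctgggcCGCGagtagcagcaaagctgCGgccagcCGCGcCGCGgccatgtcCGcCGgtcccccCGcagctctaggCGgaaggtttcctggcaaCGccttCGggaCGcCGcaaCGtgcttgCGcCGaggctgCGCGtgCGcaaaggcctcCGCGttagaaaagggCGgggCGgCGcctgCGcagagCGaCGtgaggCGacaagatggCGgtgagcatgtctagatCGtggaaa

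The Mael stretch matched chr1:168168876-168169125 on the minus strand, with 12 of its 18 CpGs listed. It runs past the end of the dense window that holds the gene's start. At its CpGs 3 of 22 reads were methylated in the Tet1-null pool, and the WT pool had no reads. The level of 20% or more thus belongs to the dense run and is not shown by this stretch. The Tmem267 stretch matched chr13:120277030-120277279 on the plus strand and holds 39 CpGs. Nol7 matched chr13:43493495-43493744 on the plus strand with 22 CpGs, and Ndufaf3 matched chr9:108469768-108470017 on the minus strand with 21. The Lsm7 stretch, at chr10:80317902-80318151 on the minus strand, holds 35 CpGs. The gene's start lies in a shore with 36 positions, and the stretch before it runs on into the next window. At these Lsm7 CpGs 3 of 112 reads were methylated in the Tet1-null pool, against 1 of 74 in the WT pool. At those of Tmem267, 258 of 436 reads were methylated in the Tet1-null pool, against 87 of 116 in the WT pool.

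Shores were nearly free of methylation in both pools. Their level, methylated reads over all reads summed over CpG positions, was 2.90% in the Tet1-null pool (2.88 to 2.93, 1440959 reads) and 2.54% in the WT pool (2.51 to 2.57, 898899 reads). The Tet1-null pool was thus higher by 0.361 percentage points (0.319 to 0.404), or 1.14-fold. This value moved with the definition of a shore, to 0.542 points with dense set at 30 or more positions, 0.167 points at 60 or more and 0.553 points with 500 bp windows. A position was read 2.75 times on average in the Tet1-null pool and 2.11 times in the WT pool. Windows further off were at 4.16% in the Tet1-null pool and 3.43% in the WT pool, a difference of 0.729 points (0.720 to 0.739) and 1.21-fold. On the mitochondrial genome, whose level serves as a measure of unconverted cytosines, 1.29% of reads were methylated in the Tet1-null pool and 1.66% in the WT pool, a difference of -0.371 points (-0.537 to -0.211). That difference is close in size to the one in the shores and runs the other way. With the mitochondrial level subtracted in each pool, the shores stood at 1.62 points in the Tet1-null pool and 0.886 points in the WT pool, which is 0.732 points higher.

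Level depended on distance from the dense windows, and more so in the Tet1-null pool. At 1 window the shores were at 2.72% in the Tet1-null pool and 2.496% in the WT pool, a difference of 0.225 points (0.171 to 0.279). At 2 windows they were at 3.19% in the Tet1-null pool and 2.61% in the WT pool, a difference of 0.574 points (0.505 to 0.643). Just outside the shores, at 3 windows, the levels were 3.44% in the Tet1-null pool and 2.82% in the WT pool. Both pools then climbed slowly, to 4.57% in the Tet1-null pool and 3.85% in the WT pool at 100 or more windows. Dense windows themselves were at 3.01% in the Tet1-null pool and 3.62% in the WT pool. They were at 2.88% and 3.17% once windows of over 20 times the median depth were left out. Pooled over all runs, shores 1 window away thus lay below the dense windows in both pools. That order did not hold in every class of runs sorted by WT level. In the Tet1-null pool, the 5361 runs under 2% were at 2.08% and their shores 1 window away at 2.33%. The 3508 runs at 2 to under 5% were at 2.11% and those shores at 2.43%. For the 1384 runs at 5 to under 20% the order held, at 2.96% and 2.69%. For the 149 runs at 20% or more it was reversed again, at 19.2% and 25.6%. The nearest shores also held more CpGs, with a median of 15 positions at 1 window and 9 at 2 windows.

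**Figure D1:**
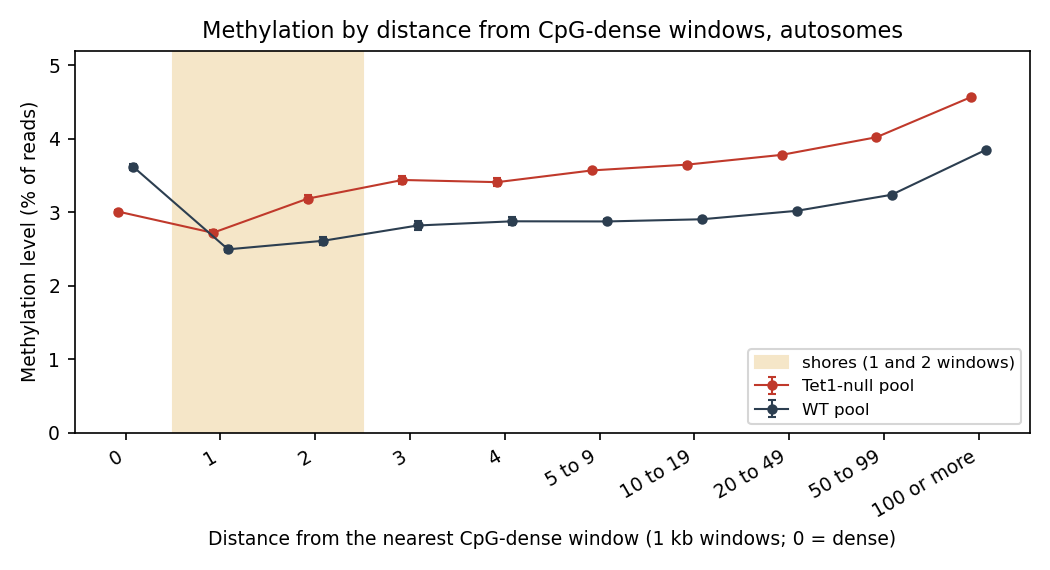
Methylation level (% of reads) of autosomal 1 kb windows in the Tet1-null pool and the WT pool by distance from the nearest dense window, where 0 is a dense window and the shaded band marks the shores. Points are pooled levels and bars are 95% counting intervals. The pools lie closest at 1 window, 2.72% and 2.496%, and the WT pool is above the Tet1-null pool at 0.

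The approach to the dense windows was graded within the shore. Positions 1 to 500 bp from the edge of the nearest dense window were at 2.58% in the Tet1-null pool and 2.42% in the WT pool, a difference of 0.162 points (0.0942 to 0.230). At 1501 to 2000 bp the Tet1-null pool was at 3.29%, against 2.62% in the WT pool, a difference of 0.679 points (0.578 to 0.779). In bins of 500 bp the WT pool lay between 2.61% and 2.62% from 501 to 2000 bp, while the Tet1-null pool went through 2.95% and 3.08% to 3.29% over the same stretch. These levels include the shores of methylated dense runs described below, where levels fell over that stretch. There the WT pool went from 28.6% at 501 to 1000 bp to 19.7% at 1501 to 2000 bp, and the Tet1-null pool from 26.7% to 17.4%. The level WT values are therefore a mix of shores with unlike profiles. The difference between the pools was larger at the outer end of the shore than at its inner end, with intervals that do not overlap. Beyond the shore it varied between 0.429 and 0.768 points out to 5000 bp.

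**Figure D2:**
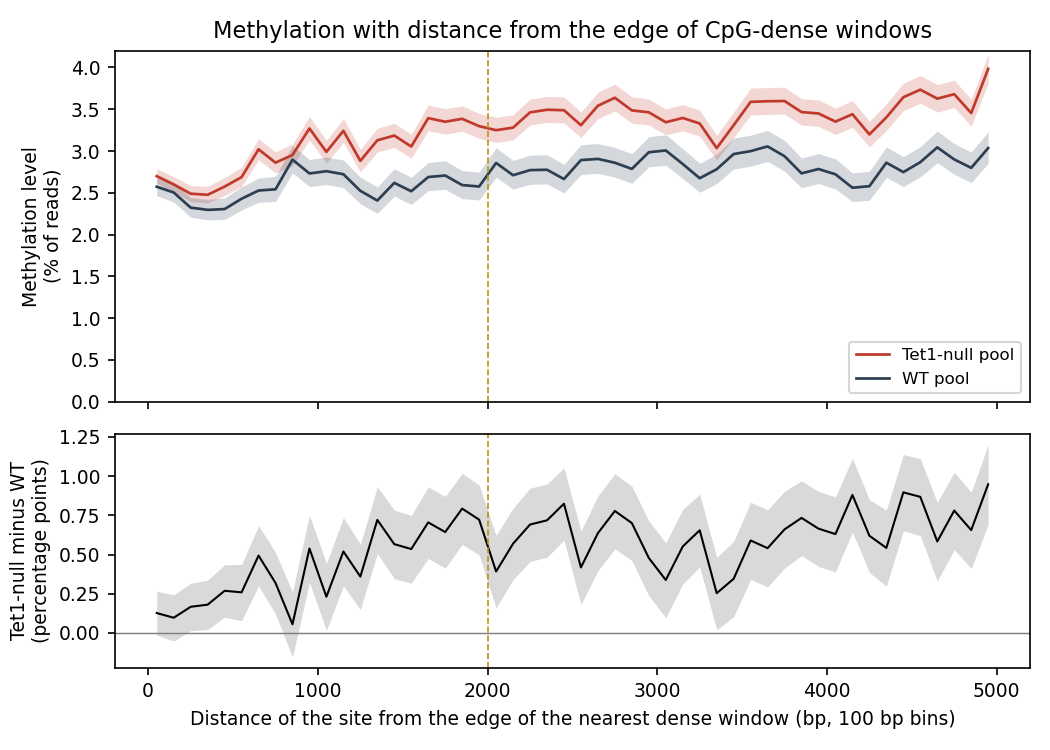
Upper panel, methylation level (% of reads) in the Tet1-null pool and the WT pool by distance in bp from the edge of the nearest dense window, in 100 bp bins. Lower panel, Tet1-null minus WT in percentage points. Bands are 95% counting intervals and the dashed line at 2000 bp marks the outer limit of the shores, before which the difference climbs in 500 bp bins through 0.162, 0.331, 0.477 and 0.679 points.

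CpG number did not set the level of a shore as it did elsewhere. Shores 1 window away stayed within a narrow range at every CpG number, between 2.55% and 3.16% in the Tet1-null pool and between 2.36% and 2.67% in the WT pool. Windows further off climbed with CpG number up to 34 positions. They were at 3.13% with 1 to 4 positions in the Tet1-null pool and 2.80% in the WT pool, and at 8.95% with 30 to 34 positions in the Tet1-null pool and 7.64% in the WT pool. With 35 to 39 positions they were at 7.29% in the Tet1-null pool and 6.51% in the WT pool. From 10 positions upward, shores 2 windows away lay between these, with 3.95% at 35 to 39 positions in the Tet1-null pool and 3.62% in the WT pool. With 5 to 9 positions they lay below both the nearer shores and the windows further off, at 2.78% in the Tet1-null pool and 2.39% in the WT pool.

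The difference between the pools followed the same split. In shores 1 window away it was 0.390 points (0.267 to 0.511) with 10 to 14 positions and 0.415 points (0.294 to 0.534) with 15 to 19. From 25 positions upward it was not detectable at this depth, at -0.0181 points (-0.165 to 0.127) with 25 to 29 positions, -0.102 points (-0.264 to 0.0580) with 30 to 34 and -0.0792 points (-0.245 to 0.0841) with 35 to 39. Shores 2 windows away with the same CpG numbers differed by 0.419 points (0.0411 to 0.789), 0.955 points (0.488 to 1.40) and 0.321 points (-0.317 to 0.929). Windows further off of the same CpG numbers differed by 1.39, 1.31 and 0.773 points, each with an interval above 0. Just inside the limit on CpG number, shores with 36 to 39 positions at 1 window were at 2.488% in the Tet1-null pool and 2.498% in the WT pool. Dense windows with 40 to 43 positions, just outside it, were at 4.12% in the Tet1-null pool and 3.70% in the WT pool. These dense windows were taken with or without a dense neighbour, so the sets differ in surroundings as well as in CpG number. Windows further off with 35 to 39 positions were at 7.29% in the Tet1-null pool and 6.51% in the WT pool.

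**Figure D3:**
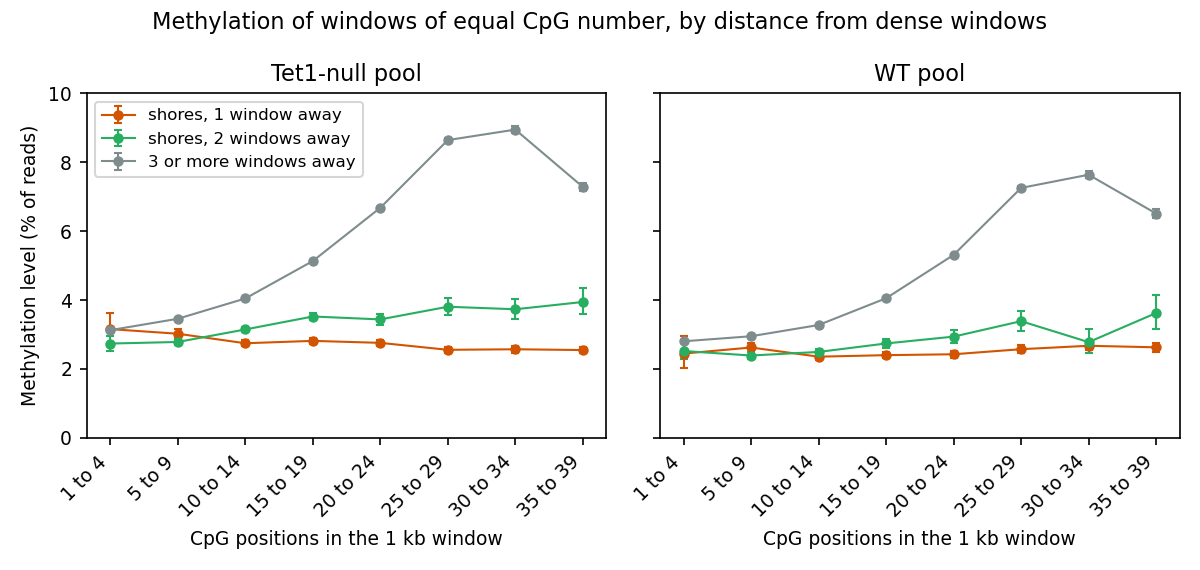
Methylation level (% of reads) by the number of CpG positions in the 1 kb window, in the Tet1-null pool (left) and the WT pool (right). Lines are shores 1 window away, shores 2 windows away and windows 3 or more away, and bars are 95% counting intervals. Both shore lines stay under 4% while the windows further off reach 8.95% in the Tet1-null pool and 7.64% in the WT pool.

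To compare at equal CpG number, levels were taken for each number of positions and averaged with the shores' own mix of CpG numbers. On that scale the shores of the Tet1-null pool were at 2.89%, against 5.80% in windows further off, a difference of -2.91 points (-2.94 to -2.88). The shores of the WT pool were at 2.55%, against 4.81% in windows further off, a difference of -2.26 points (-2.30 to -2.22). Shores were lower on 19 of 19 autosomes in the Tet1-null pool, with a mean of -2.93 ± 0.643 points, and on 19 of 19 in the WT pool, with a mean of -2.32 ± 0.621 points (SD over autosomes, which are not replicates). With 500 bp windows the differences were -1.21 points in the Tet1-null pool and -0.691 points in the WT pool, and with dense set at 30 or more positions they were -1.47 and -1.01 points. With 20 to 39 positions the gap was wider, at 2.79% in shores against 7.87% further off in the Tet1-null pool, and at 2.66% in shores against 6.63% further off in the WT pool.

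Tet1-null minus WT was 0.340 points (0.297 to 0.383) in shores and 0.991 points (0.966 to 1.02) further off at equal CpG number. The first minus the second was -0.651 points (-0.701 to -0.602), and -0.432 points at sites 100 bp apart or -0.275 points with the CpG mix of the windows further off. As a ratio, the Tet1-null level was 1.13 times the WT level in shores and 1.21 times further off. This order of the ratios rests on the unadjusted levels. With the mitochondrial level subtracted and windows taken as they are, the ratio was 1.83 in shores and 1.62 further off. In points, a shared background subtracted from each pool leaves the -0.651 points as they are.

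Per autosome, the shores of the Tet1-null pool were above those of the WT pool on 19 of 19, by 0.371 ± 0.189 points at equal CpG number, against 0.983 ± 0.137 points further off. The shore difference was smallest on chromosome 9, at 0.00387 points, and largest on chromosome 13, at 0.686 points. It was smaller than the one further off on 19 of 19 autosomes, with gaps between -0.147 points on chromosome 18 and -0.964 points on chromosome 9. Among shores with 20 to 39 positions the Tet1-null pool was higher on 15 of 19 autosomes. Chromosome 12 had the most methylated shores in both pools, 3.93% in the Tet1-null pool and 3.41% in the WT pool.

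**Figure D4:**
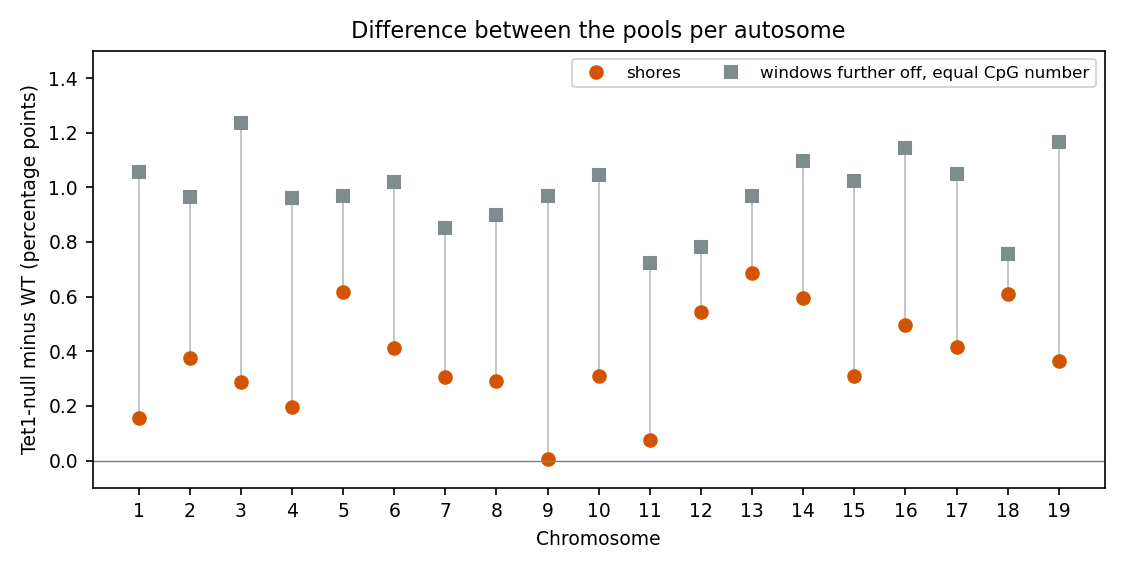
Tet1-null minus WT in percentage points for each autosome, in shores (circles) and in windows further off of equal CpG number (squares), with a line joining the pair. The circle is below the square on 19 of 19 autosomes, and on chromosome 9 it lies at 0.00387 points.

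The contrast with windows further off was widest against the most distant ones. At the shores' mix of CpG numbers, windows at distance 3 were at 3.84% in the Tet1-null pool and 3.26% in the WT pool, windows at 10 to 19 were at 4.14% in the Tet1-null pool and 3.20% in the WT pool, and windows at 100 or more were at 9.001% in the Tet1-null pool and 7.86% in the WT pool. Against windows 3 and 4 away alone, a comparison added after seeing the data, shores minus those windows was -0.895 points in the Tet1-null pool (-0.953 to -0.836) and -0.685 points in the WT pool (-0.756 to -0.614), and the difference of the pools' differences was -0.210 points (-0.302 to -0.118). Within the shores, distance 1 minus distance 2 at equal CpG number was -0.627 points in the Tet1-null pool (-0.6999 to -0.554) and -0.328 points in the WT pool (-0.416 to -0.240). That order held on 18 of 19 autosomes in the Tet1-null pool and on 15 of 19 in the WT pool. In the WT pool it was within counting error with dense set at 30 or more positions (-0.0224, -0.0901 to 0.0453) or at 60 or more (-0.0627, -0.197 to 0.0714).

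Crowding was also counted around each position. Where a position had 10 to 19 other positions within 100 bp, shores at distance 1 were at 2.82% in the Tet1-null pool and 2.93% in the WT pool, while positions further off were at 15.04% in the Tet1-null pool and 12.7% in the WT pool. Isolated positions, with 0 others in that range, were at 2.60% in the Tet1-null pool and 2.24% in the WT pool in shores. Isolated positions further off were at 2.96% in the Tet1-null pool and 2.64% in the WT pool. With 10 to 19 others, shores at distance 2 were at 4.36% in the Tet1-null pool and 4.15% in the WT pool. With 20 or more others, shores were at 2.59% in the Tet1-null pool and 2.34% in the WT pool. Positions further off with 20 or more others were at 7.30% in the Tet1-null pool and 5.74% in the WT pool. Shores and windows further off thus stood apart mainly at crowded positions, though less at 20 or more others than at 10 to 19.

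Most single shores had few or no methylated reads. A total of 17259 shores had 5 or more positions shared by the pools and 20 or more reads per pool. Of these, 47.9% had no methylated read in the Tet1-null pool, whose median was 43 reads, and 57.6% had none in the WT pool, whose median was 30 reads. Only 36 of them reached 50% in the Tet1-null pool and 39 in the WT pool, 17 of which did so in both. Among shores with 20 to 39 positions, 1.24% lay between 20% and 50% in the Tet1-null pool, against 7.47% of such windows further off. In the WT pool these shares were 0.777% of the shores and 5.96% of the windows further off. Median depths matched, at 57 reads in shores and 54 further off in the Tet1-null pool, and at 37 in shores and 36 further off in the WT pool.

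A small set of shores surrounded dense runs that were themselves methylated. In 122 runs at 20% or more in both pools, the dense windows stood at 48.9% in the Tet1-null pool and 49.96% in the WT pool, over all of their reads. Their 474 shores, 1.09% of all shores, were at 26.6% in the Tet1-null pool (25.8 to 27.3) and 27.5% in the WT pool (26.5 to 28.4), and the difference of -0.910 points (-2.12 to 0.291) was within counting error. They held 8.78% of the shores' methylated reads in the Tet1-null pool and 10.1% in the WT pool. Here the level went down with distance. It was 34.9% at 1 to 500 bp from the edge in the Tet1-null pool and 35.2% in the WT pool, and at 1501 to 2000 bp it was 17.4% in the Tet1-null pool and 19.7% in the WT pool. All other shores were at 2.67% in the Tet1-null pool and 2.31% in the WT pool, a difference of 0.368 points (0.327 to 0.409).

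Of these 122 runs, 2 held a gene start that could be placed. The Mael run at chr1:168168001-168169000 was at 20% of 85 reads in the Tet1-null pool and 26.1% of 23 reads in the WT pool. Its 4 shores had 7 methylated reads of 59 in the Tet1-null pool and 0 of 32 in the WT pool, a count of 0 that allows a share of up to 9.38%. The run of Tmem267 and 3110070M22Rik at chr13:120277001-120278000 was at 67.5% of 1404 reads in the Tet1-null pool and 60.3% of 537 reads in the WT pool. Its 4 shores were at 29.7% of 723 reads in the Tet1-null pool and 28.5% of 460 reads in the WT pool. This run, a single window, was read far more deeply than most. Dense windows with enough reads to be tested had medians of 96 reads in the Tet1-null pool and 53 in the WT pool. Tested shores had medians of 43 and 30 reads. The run also holds more CpG positions than the mean dense window, at 56.6. Whether all of its reads come from this place was not tested. Both runs were singled out after their values were seen.

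Longer dense runs had slightly less methylated shores. At equal CpG number, shores of runs of 3 or more windows were at 2.56% and those of single windows at 2.97% in the Tet1-null pool. In the WT pool they were at 2.24% beside the longer runs and 2.62% beside single windows. The 732 shores with a dense window on both sides differed from the others by -0.709 points in the Tet1-null pool (-0.906 to -0.512) and by -0.670 points in the WT pool (-0.909 to -0.431). Neither feature changed the difference between the pools beyond counting error.

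Gene starts were placed for 9739 promoters of 8680 genes, of 13800 autosomal promoters with 10 or more CpGs in the sequence table, which holds none for chromosome 18. Of these, 6221 fell in dense windows and 835 in shores. Promoters that lay in shores were at 2.35% in the Tet1-null pool and 2.49% in the WT pool, a difference of -0.137 points (-0.483 to 0.195). The 774 shores with a placed start, which held a median of 30 CpG positions, were at 2.28% in both pools. At equal CpG number they differed from shores with none by -0.476 points in the Tet1-null pool (-0.622 to -0.329) and by -0.409 points in the WT pool (-0.604 to -0.214).

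Around dense runs with a placed start the shores were at 2.58% in the Tet1-null pool and 2.30% in the WT pool. Around runs with none they were at 3.15% in the Tet1-null pool and 2.74% in the WT pool. At equal CpG number the shores of runs without a placed start were higher by 0.611 points in the Tet1-null pool, with the same sign on 17 of 18 autosomes, and by 0.457 points in the WT pool, on 14 of 18. A start that could not be placed counts as none here, and it was not tested how many such runs are promoters. Nearly all of the 122 runs at 20% or more in both pools had no placed start, and their shores were not left out of this comparison. Those 474 shores were at 26.6% in the Tet1-null pool and 27.5% in the WT pool. How much of the gap they account for was not tested. Shores downstream of a start minus those upstream came to -0.154 points in the Tet1-null pool (-0.240 to -0.0688) and -0.229 points in the WT pool (-0.332 to -0.125). This side difference had the same sign on only 10 of 18 autosomes in either pool.

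**Figure D5:**
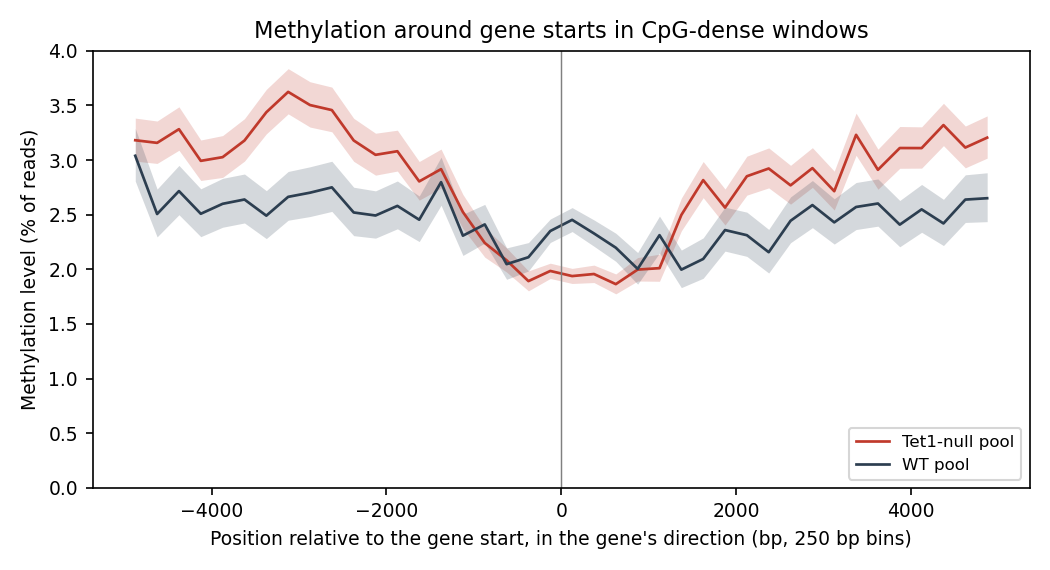
Methylation level (% of reads) around gene starts placed in dense windows, by position in bp relative to the start in the direction of the gene (250 bp bins), in the Tet1-null pool and the WT pool with 95% counting intervals. In the first 250 bp downstream the Tet1-null pool is at 1.94% and the WT pool at 2.45%, and beyond about 1500 bp on either side the Tet1-null pool is above the WT pool.

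Few single shores differed between the pools. Each of 372073 windows of the autosomes and the X chromosome with enough reads was tested by a two-sided Fisher's exact test on methylated and unmethylated reads with Benjamini-Hochberg adjustment, and calls needed an adjusted p under 0.05 together with a gap of 20 points or more. The test compares the reads of these pools, not the genotypes. Among the 17259 shores tested, 15 were higher in the Tet1-null pool, or 0.0869%, against 0.097% of all windows tested. Another 5 were lower, or 0.0290%, against 0.0637% of all windows. At an unadjusted p under 0.05, 278 of these 17259 shores were higher and 271 lower. Of 334318 windows further off, 8786 were higher and 5969 lower at that limit, and of 12375 dense windows, 205 were higher and 531 lower. By this test the shares of called shores were near or below the background. Thinned to equal depth, 4 of 9315 shores were called higher and 0 lower, against 76 higher and 30 lower of all 173856 windows tested. At sites 100 bp apart none of the windows tested was called, shores included. Among windows with 20 to 39 positions, 0.132% of shores were called higher and 0.0527% lower, against 0.309% higher and 0.177% lower further off.

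The 15 higher ones had a median of 42.96% in the Tet1-null pool and 1.59% in the WT pool. Of them 9 lay at distance 2, where 6058 shores were tested, and 6 at distance 1, where 11201 were tested. The 5 lower ones had medians of 2.17% in the Tet1-null pool and 54.4% in the WT pool. A quasi-binomial F test that lets positions within a window vary beyond counting called 5 of 17259 shores higher and 0 lower. Of all 372073 windows tested it called 69 higher and 44 lower. The share called higher was thus larger in shores than in all windows under this test, though on only 5 calls.

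The shore with the largest rise, chr2:174124001-174125000, had 35 of 52 reads methylated in the Tet1-null pool and 0 of 25 in the WT pool, which allows up to 12% (Fisher's exact test, adjusted p = 2.55e-05). It holds 26 CpG positions beside a run of 2 dense windows at 21.5% of 237 reads in the Tet1-null pool and 3.10% of 129 reads in the WT pool. The nearest placed start was that of Gnas, 14680 bp from its centre, a gene for a stimulatory G protein subunit in an imprinted cluster. A shore at chr13:43491001-43492000, centred 2244 bp from the Nol7 start shown above, had 30 of 50 reads methylated in the Tet1-null pool and 6 of 73 in the WT pool (Fisher's exact test, adjusted p = 8.34e-06). The dense window at Nol7 was at 8.60% of 93 reads in the Tet1-null pool and 3.57% of 28 reads in the WT pool. These 2 windows passed the quasi-binomial test, though not the test at sites 100 bp apart, with adjusted p of 0.00428 near Gnas and 0.00861 near Nol7, and the other 8 named here did not (0.0620 to 0.426).

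The remaining shores with the largest rises were on chromosomes 5, 8 and 12. At chr5:36922001-36923000, centred 2545 bp from the start of Tbc1d14, 13 of 24 reads were methylated in the Tet1-null pool and 0 of 33 in the WT pool. At chr12:18140001-18141000 the counts were 37 of 44 in the Tet1-null pool and 13 of 43 in the WT pool. At chr8:119500001-119501000, beside the dense window of 1700030J22Rik, they were 19 of 37 in the Tet1-null pool and 1 of 25 in the WT pool. The first and the last of these stood beside a dense window under 5% in both pools, and the one on chromosome 12 beside one at 10.4% of 144 reads in the Tet1-null pool and 0 of 19 in the WT pool.

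The lower shores were on chromosomes 6, 9, 11 and 14. At chr9:51574001-51575000, beside the dense window of Gm40520, 0 of 20 reads were methylated in the Tet1-null pool and 31 of 57 in the WT pool. At chr11:116936001-116937000, near Snhg20, a small nucleolar RNA host gene, the counts were 2 of 42 in the Tet1-null pool and 20 of 35 in the WT pool. At chr6:9246001-9247000 they were 10 of 33 in the Tet1-null pool and 44 of 59 in the WT pool, beside a dense window at 48.7% in the Tet1-null pool and 42.6% in the WT pool. At chr14:69790001-69791000 they were 1 of 46 in the Tet1-null pool and 9 of 20 in the WT pool. The shore at chr9:108471001-108472000, between the dense windows that hold the starts of Ndufaf3 and Dalrd3, had 0 of 85 reads methylated in the Tet1-null pool, which allows up to 3.53%, and 8 of 34 in the WT pool. At the CpGs of the Ndufaf3 stretch shown above 0 of 80 reads were methylated in the Tet1-null pool and 0 of 30 in the WT pool. The counts sum all listed positions of a window, so where few are covered in both pools they compare partly different CpGs. Covered in both were 8 of 28 positions at chr9:51574001-51575000, 5 of 19 on chromosome 11 and 13 of 23 on chromosome 6. On chromosome 14 they were 15 of 20, and at chr9:108471001-108472000 10 of 25. Among the higher shores they were 10 of 26 near Gnas, 21 of 26 near Nol7 and 14 of 17 on chromosome 12. On chromosomes 5 and 8 they were 12 of 12.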

How the data were processed

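Whole-genome bisulfite libraries of primordial germ cells were pooled per group by the authors into 1 table of CpG sites per group, 5 Tet1-null and 4 WT libraries, with positions on mm9 per the submitters' processing notes, which also name bedtools. Each deposited row gives a methylation fraction and a read count, and a read filter deposited by the authors discards any read whose bases include over 1.2% of cytosines outside CpG, a step that can lower levels. The aligner is not given in the sources used here. The tables list 16372728 sites at a mean of 2.85 reads in the Tet1-null pool and 13730600 sites at 2.21 reads in the WT pool. Fraction times count gave whole methylated reads at 100% of sites (within 0.0005 per read).

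Levels here are methylated reads over all reads, with Wilson intervals, Newcombe intervals for differences and binomial variances for averages over CpG numbers 1 to 39. Reads copied by PCR carry no molecular identifier and may repeat a molecule, and a read counts at each position it covers. The intervals take these counts as independent, so they cover counting error at most and may be narrower than it. Floors use 3 counts and take reads at different positions as independent in the same way. Windows were tested with 5 or more positions covered in both pools and 20 or more reads in each. Among called shores, the windows named are the 5 that rose most and the 5 that fell most. Promoters with 10 or more CpGs were placed in the tables by the spacing of their CpGs on the same chromosome (70.6% found, 16 at several places). Table positions were read as BED, and an offset of 1 base was not checked against a genome. The calculations used Python 3.11.15, numpy 2.4.6 and scipy 1.17.1 and were tested on simulated data. The members, lists and tests were chosen with earlier results of these data known. Alternatives changed the density limit, the window size, the sites and depths used, the weights and the background. Nothing in the labels says that libraries came from separate embryos.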

Additional observations from a re-analysis of the deposited data

Results flagged for a closer look

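On the X chromosome, which the shores above do not include, 1196 windows met the same definition. They were at 7.85% in the Tet1-null pool (7.59 to 8.12) and 7.28% in the WT pool (6.96 to 7.62), a difference of 0.566 points (0.136 to 0.990) in data outside the main measurement. None of these windows was deeper than 20 times the median. At equal CpG number X shores were at 6.17% against 13.0% further off in the Tet1-null pool, and at 5.82% against 12.6% further off in the WT pool. The difference between the pools was 0.352 points (-0.00509 to 0.709) in X shores and 0.418 points (0.176 to 0.659) further off, and the gap between these, -0.0657 points (-0.497 to 0.366), was within counting error.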

How the results depend on the processing

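No paired analysis was possible because each deposited table pools the libraries of a group, and for the same reason no library could be left out. All 65 alternatives for levels kept the direction of the result, though not all of them could have changed it. Subtracting the mitochondrial level leaves shores minus windows further off, and the difference of the pools' differences, unchanged by construction. It could only raise Tet1-null minus WT in shores, since the mitochondrial level was higher in the WT pool. Tet1-null minus WT in shores was 0.542 points with dense at 30 or more positions, 0.167 at 60 or more, 0.553 with 500 bp windows, 0.496 where both pools had 3 or more reads at the site, 0.315 at sites 100 bp apart and 0.732 with the mitochondrial level subtracted. Shores minus windows further off, in the Tet1-null pool and then the WT pool, were -1.47 and -1.01 points with dense at 30, -2.71 and -2.12 at 60, -1.21 and -0.691 with 500 bp windows, -2.75 and -2.15 at sites listed in both pools, -2.74 and -2.11 at sites with 3 reads, -3.11 and -2.54 as means of window levels, -2.74 and -2.17 at equal depth, -2.03 and -1.60 at sites 100 bp apart, -3.26 and -2.55 against windows 10 or more away, and -1.28 and -1.001 with the CpG mix of the windows further off. Of the alternatives chosen after seeing the data, leaving out shores of methylated runs gave -3.15 and -2.51, and windows 3 and 4 away gave -0.895 and -0.685. The difference of the pools' differences was -0.462 with dense at 30, -0.588 at 60, -0.515 with 500 bp windows, -0.592 at sites in both pools, -0.573 as means of window levels, -0.566 at equal depth, -0.432 at sites 100 bp apart, -0.708 against windows 10 or more away, -0.275 with the other CpG mix and -0.210 against windows 3 and 4 away. Distance 1 minus distance 2 was -0.359 in the Tet1-null pool and -0.0224 in the WT pool with dense at 30, -0.531 and -0.0627 at 60, and -0.484 and -0.216 at sites 100 bp apart, and both WT values at 30 and 60 had intervals that include 0. Called shores, higher then lower, were 5 and 0 of 17259 tested under the quasi-binomial test and 4 and 0 of 9315 at equal depth. They were 0 and 0 of 9975 at sites 100 bp apart. The counts were 23 and 8 of 25755 with dense at 30, and 8 and 1 of 7717 at 60. With 10 or more reads they were 12 and 3 of 29414, and with 40 or more reads 11 and 3 of 3289. Of all 372073 windows tested, 361 were called higher and 237 lower, also with dense at 30 or 60. Under the quasi-binomial test these numbers were 69 and 44, and at equal depth 76 and 30 of 173856. They were 283 and 260 of 894412 with 10 or more reads, and 229 and 111 of 43076 with 40 or more. At sites 100 bp apart the count was 0 among all 311031 windows tested. The cause of these shifts was not tested. At 2.75 reads a site in the Tet1-null pool and 2.11 in the WT pool, single shores carry wide intervals, and only 39.9% of shores could be tested.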
